A study of Homo sapiens with 28 samples.

Results

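The genes described are the expressed long intergenic noncoding RNA (lincRNA) genes of SEM cells. They are the rows of the deposited gene tables with the biotype lincRNA selected on their measured level: the mean over 28 libraries was at least 2 CPM (the count scaled to the library total). The rule found 240 of 7114 lincRNA rows, of which 3674 held a count in at least 1 library, and of 57820 genes in all. The members were thus chosen by their level, which is given here as a description. The auxin effect was not used by the rule, although levels with and without auxin both entered the mean.

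Long noncoding RNAs are transcripts that are not translated into protein, and lincRNAs are those whose genes lie between protein-coding genes. Some build nuclear bodies or act on chromatin, some are precursors from which microRNAs or small nucleolar RNAs are cut, and for most no function is known. CTCF is the zinc finger protein that binds DNA at loop anchors and domain boundaries, where it halts cohesin, and it also binds RNA.

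SEM cells come from a human acute lymphoblastic leukemia of early B cells that carries MLL-AF4, and every line studied derives from it. In CTCFAID2 cells the endogenous CTCF carried a miniAID degron and mClover3, a doxycycline-inducible wild-type OsTIR1 stood in the AAVS1 locus, and OsTIR1(F74G) was expressed constitutively from a lentiviral construct, so that the auxin analog 5-Ph-IAA triggers loss of the CTCF protein. The 24 h set held CTCFAID2 cells without auxin (4 libraries) and with 5-Ph-IAA (4 libraries; 1 µM in the sample titles, 10 µM in the treatment text), and SEM WT cells, which lack the degron, without auxin (2 libraries) and with IAA (2 libraries), to which the study also added doxycycline. The 6 h set held 4 lines, each without and with auxin in 2 libraries: CTCFAID2 cells carrying an added doxycycline-inducible CTCF that was full-length (WT line) or lacked zinc finger 1 (DeltaZ1), zinc finger 10 (DeltaZ10) or the RNA-binding region (DeltaRBR). For the 6 h libraries IAA alone is labelled, so in which of them doxycycline was present is not given. The paper's methods describe 10 µM 5-Ph-IAA for 6 h and added doxycycline for these lines, but its RNA-seq methods do not list them. The WT line of the 6 h set is not the SEM WT of the 24 h set.

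Libraries held 25.8 to 60.7 M counts, and each of the 240 members had a count in all 28. Of 12 B-lineage and leukemia markers 11 had a mean of at least 1 CPM, with DNTT below, and these markers summed to 2846 to 3701 CPM. Of 5 T and NK cell markers 2 reached a mean of 1 CPM (summed 42 to 83.8 CPM, with CD3D, CD3E and CD8A below), as did 1 of 4 myeloid markers (summed 2.87 to 46.3 CPM, with CD14, ELANE and MPO below). None of 4 erythroid markers (at most 0.0183 CPM) or 4 stromal markers (at most 1.90 CPM) did. CTCF mRNA, which is no check of the protein, was higher with auxin in CTCFAID2 cells at 24 h (log2 fold change 0.78 ± 0.02 SE, limma-voom adjusted p = 6.96e-12) and in the mean of the 4 lines at 6 h (0.64 ± 0.04, adjusted p = 3.54e-07). One library stood apart among the members: DeltaZ1 with auxin replicate 2 gave the members 0.962% of its counts, against 2.09 to 3.32% in the other 15 of that set. Whether replicate libraries were grown as separate cultures is not labelled, and the p-values therefore rest on a spread that may be technical alone. Whether any of the lines is 1 clone is not given in the sources used here.

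The sequences of the microRNAs that lie in members are shown first, because a microRNA's seed sets which transcripts it pairs with. Of 184 members that could be placed on GRCh37 through the Gencode v44 annotation, 15 held a microRNA gene by its coordinates, and for 12 of these a mature sequence was found in RefSeq. The microRNAs printed were picked after the values of their hosts were seen. They belong to hosts that passed in CTCFAID2 cells at 24 h or in the mean at 6 h, and not every such host is shown: FTX, LINC00152 and MIR24-2 also passed there, and MIR4435-1HG passed in SEM WT. Seeds, bases 2 to 8, are in capitals, and the mature RNAs themselves were not measured.
miR-155-5p, from MIR155HG: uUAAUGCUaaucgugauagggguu
miR-9-5p, from LINC00461: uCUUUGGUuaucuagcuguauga
let-7a-5p, from RP11-2B6.2: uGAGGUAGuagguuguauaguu
let-7f-5p, from RP11-2B6.2: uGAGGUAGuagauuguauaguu
let-7d-5p, from RP11-2B6.2: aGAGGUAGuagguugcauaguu
miR-4458, from MIR4458HG: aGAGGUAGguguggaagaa
miR-181a-5p, from MIR181A1HG: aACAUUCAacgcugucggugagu
miR-181b-5p, from MIR181A1HG: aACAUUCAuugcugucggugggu
miR-570-3p, from LINC00969: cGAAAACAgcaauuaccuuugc
The 3 let-7 RNAs of RP11-2B6.2 and miR-4458 of MIR4458HG share the seed GAGGUAG, and the miR-181 pair shares ACAUUCA. RP11-2B6.2 is named MIRLET7A1HG in Gencode v44, and its let-7 hairpins lie at chr9:96938234-96938325, chr9:96938629-96938715 and chr9:96941116-96941202 on the plus strand (GRCh37).

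The class was mixed. Median level was 5.80 CPM, 10 members were at 100 CPM or more, 64 from 10 to under 100 and 166 under 10. By their names alone, 13 members were taken as small structured RNAs rather than long ones. They are the U3 rows SNORD3A, SNORD3B-1, SNORD3B-2, SNORD3C and SNORD3D and the guide RNA rows SNORD116-20, SCARNA2 and SNORA76. The others are RMRP (the RNA of RNase MRP), TERC (telomerase RNA), the spliceosomal RNAs RNU11 and RNU12, and 7SK. The SNORD116-20 row spans 1.24 kb, is lncRNA in Gencode v44 and shares 100% of its sequence windows with SNHG14. The SNORA76 row spans 0.54 kb and is the lncRNA SNHG25 in Gencode v44, so it too may not be the guide RNA. The 7SK row, which could not be placed, was at 7.87 CPM but at 1.74 TPM (scaled by gene length) in the 6 h set. Whether these 13 rows measure the small RNAs they are named for was not tested. Of the 184 placed members Gencode v44 calls 157 lncRNA, 10 protein_coding and 17 another type, and among the 10 are C11orf95 (now ZFTA), LINC00493 (SMIM26), LINC00116 (MTLN) and NCBP2-AS2. The placed members had a median span of 6.76 kb and a median gap of 5.79 kb to the nearest tested protein-coding gene. In all, 54 overlapped another tested gene, 29 of them on the opposite strand, and 35 started within 1000 bases of a protein-coding start in the opposite direction. Counting by strand is not stated, so the values of these members are uncertain. The same holds for members that share sequence windows with other genes' transcripts on the opposite strand. Among them are MALAT1 (66% of its windows), EPB41L4A-AS1 (46.6%), RP11-44N11.2 (46.2%) and XIST (28.6%). Because 56 members, 23.3% of the total, could not be placed, statements on position cover the placed ones alone.

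Per length, the highest members in the 6 h set were SNORD3A at 107600 ± 33950 TPM (a level scaled by gene length and library size, mean ± SD, n = 16 libraries), RMRP at 25990 ± 3810, SNORD3B-2 at 1313 ± 528, SNHG8 (a host of small nucleolar RNAs) at 887 ± 202, RNU11 at 732 ± 241 and SNORD3B-1 at 681 ± 409 TPM. SCARNA2 at 572 ± 104, RNU12 at 492 ± 163, MALAT1 (the nuclear speckle RNA) at 320 ± 65.4 and SNORA76 at 206 ± 68.6 TPM followed. Neighbours in this order from SNHG8 to RNU12 differed by less than the larger of their SDs. At the lower edge of the rule, RP11-932O9.10 (2.03 CPM) and CTD-2201E18.5 (2.04 CPM) were just inside, and RP11-13N13.2 (1.98 CPM) and ZNF833P (1.96 CPM) just outside.

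The 13 small RNA rows set much of the class total. They held 1.33 to 2.49% of the counts in 15 libraries of the 6 h set and 0.369% in DeltaZ1 with auxin replicate 2, while the other members held 0.578 to 1.05% over all 16. The summed U3 rows had a median of 15650 CPM in the 6 h set but 417 CPM in DeltaZ1 with auxin replicate 2 and 5465 CPM in DeltaRBR without auxin replicate 1. SNORD3D was at 3.66 to 8.62 CPM in the 24 libraries of the degron lines but at 239 and 368 CPM in SEM WT without and 1243 and 588 CPM with IAA. U3 copies share 74.5 to 92.9% of their 50-base windows with another gene's transcripts, so how reads were divided among them is uncertain, and line and processing cannot be told apart here. Members other than the small RNAs and MALAT1 summed to 2805 to 3565 CPM in the 6 h set and 2920 to 3325 CPM in the 24 h set, with DeltaZ1 with auxin replicate 2 inside that range at 2864 CPM.

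**Figure D1:**
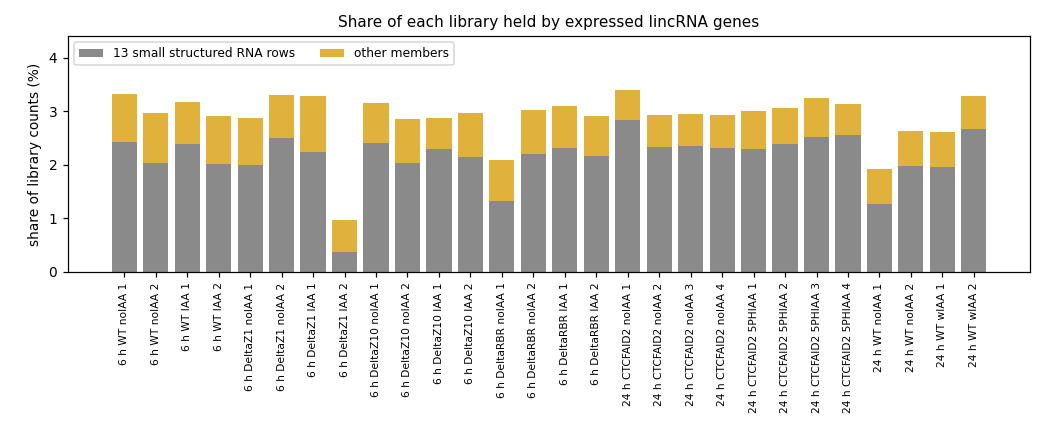
Share of each library's counts (%, y axis) held by the 13 small structured RNA rows (grey) and by the other members (yellow), stacked, for each of the 28 libraries (x axis). DeltaZ1 with auxin replicate 2 holds 0.369% in the small RNA rows, below all other libraries, while its share in the other members, 0.594%, is inside the range of the rest.

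The first comparison asked which members differed after 24 h of 5-Ph-IAA in CTCFAID2 cells. Of 240 members tested, 62 were higher and 56 lower at an adjusted p of at most 0.05 (limma-voom, Benjamini-Hochberg over 13973 genes), together 49.2%, against 58.7% of all genes tested (29.2% higher and 29.5% lower). At least 2-fold changes numbered 2 higher and 6 lower, 3.33% of members against 3.56% of all genes (1.89% higher and 1.67% lower). The median log2 fold change of the members was 0.01, and that of all genes tested was 0.00. In bulk RNA, fewer cells of a type and less RNA per cell cannot be told apart.

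The steepest falls were those of FAM225A (chr9:115875322-115882208, plus strand) and FAM225B (chr9:115864397-115873823, minus strand, GRCh37), a pair of lncRNA genes that point away from each other. FAM225A was at 4.12, 3.34, 4.08 and 5.09 CPM in the untreated CTCFAID2 libraries and at 0.289, 0.466, 0.847 and 0.972 CPM with 5-Ph-IAA (log2 fold change -2.87 ± 0.28 SE, adjusted p = 8.31e-07). FAM225B was at 1.84, 2.58, 2.40 and 1.45 CPM without and at 0.878, 0.473, 0.332 and 0.314 CPM with 5-Ph-IAA (-2.10 ± 0.30, adjusted p = 3.13e-05). Treated and untreated libraries did not overlap for either gene. FAM225A shares 90.1% of its 50-base windows with FAM225B, so the split of reads between them is uncertain, and their sum does not depend on it. That sum was 1.14 ± 0.146 CPM with and 6.22 ± 0.330 CPM without 5-Ph-IAA (SD, n = 4 each, 2-sided exact permutation p = 0.0286, the smallest that 4 against 4 allows). The pair was picked for the steepest falls in these same libraries, without overlap in either gene. This p was thus set in advance and adds no support. In SEM WT the sum was 8.85 ± 1.19 CPM with and 6.71 ± 0.687 CPM without IAA (n = 2 each, exact permutation p = 0.333, the smallest that 2 against 2 allows), and there FAM225B rather than FAM225A held most of it. The difference between the lines in log2 fold change was -3.37 ± 0.58 for FAM225A and -2.50 ± 0.34 for FAM225B (adjusted p = 0.000407 and 6.32e-05). At 6 h the sum was between 3.55 and 8.23 CPM over all 16 libraries. In DeltaZ10 it was at 5.20 and 5.93 CPM without and 3.895 and 3.545 CPM with auxin. In DeltaZ1 it was at 5.87 and 4.81 CPM without and 8.23 and 6.23 CPM with auxin. DeltaRBR was at 6.08 and 5.58 CPM without and 6.80 and 6.57 CPM with auxin. The WT line, at 5.81 and 5.50 CPM without and 4.83 and 5.97 CPM with auxin, overlapped. Separation of 2 against 2 libraries is weak, and its share over all genes at 6 h was not counted. Whether this sum differs between the lines was not tested.

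The start regions of the pair are shown because they let a reader see the copy. They are the RefSeq windows of 250 bases before to 50 after each start, on GRCh38.p14, chr9:113112646-113112945 (plus strand) for FAM225A and chr9:113111628-113111927 (minus strand) for FAM225B, and the capitals mark the 54 bases at the end that are identical.
FAM225A: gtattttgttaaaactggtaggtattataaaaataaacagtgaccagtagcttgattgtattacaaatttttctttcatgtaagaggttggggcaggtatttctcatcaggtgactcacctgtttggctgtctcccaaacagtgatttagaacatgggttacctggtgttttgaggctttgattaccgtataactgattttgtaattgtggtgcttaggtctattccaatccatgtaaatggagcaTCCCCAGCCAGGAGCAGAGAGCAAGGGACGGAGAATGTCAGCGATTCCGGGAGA
FAM225B: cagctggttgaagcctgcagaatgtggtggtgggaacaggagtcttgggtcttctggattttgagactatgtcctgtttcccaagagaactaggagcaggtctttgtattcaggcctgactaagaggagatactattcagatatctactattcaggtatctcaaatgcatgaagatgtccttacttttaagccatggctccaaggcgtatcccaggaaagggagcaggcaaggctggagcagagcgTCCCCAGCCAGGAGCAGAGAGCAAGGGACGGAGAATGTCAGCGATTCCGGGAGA
These windows and those of U91328.19 and RP5-1057J7.6 were the 4 found for the 10 members that changed at least 2-fold at 24 h or in the mean at 6 h. None held the letters CCAGNNGGC, part of the CTCF consensus, on either strand. That motif was in 14 of the 91 member windows (15.4%) and in 11.5% of 35116 windows of all genes.

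PRKCQ-AS1, whose start lies beside that of PRKCQ (a protein kinase C of lymphocytes), was at 9.14, 10.3, 9.27 and 8.68 CPM without and 3.92, 3.20, 3.57 and 3.55 CPM with 5-Ph-IAA (log2 fold change -1.41 ± 0.08, adjusted p = 3.19e-09). All treated libraries lay below all untreated ones, and PRKCQ itself was at -0.12 on the log2 scale (adjusted p = 0.0667). RP11-182L21.6 was at 5.33, 5.46, 5.31 and 5.76 CPM without and 2.11, 2.52, 1.82 and 2.15 CPM with 5-Ph-IAA (-1.38 ± 0.09, adjusted p = 1.97e-08). Its nearest tested coding gene, NUTM2B, 111 kb away, rose by 1.17 (adjusted p = 0.000493). RP11-182L21.6 overlaps a tested gene on the opposite strand and shares 44.6% of its windows with other genes, mainly NUTM2E, so it is uncertain.

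LINC00342 fell from 3.87, 4.08, 4.68 and 4.60 to 2.03, 2.20, 2.00 and 1.56 CPM (log2 fold change -1.17 ± 0.12, adjusted p = 9.5e-07), and its neighbour ANKRD36C, 1.92 kb away, fell as well (-1.19, adjusted p = 5.82e-10). AC159540.1 fell (-0.64 ± 0.06), as did its nearest tested coding gene ANKRD36, 151 kb away (-0.92). AC159540.1 shares 59.9% and LINC00342 15% of its windows with other genes. RP11-94L15.2 was at 4.95 to 5.64 CPM without and 2.34 to 2.69 CPM with 5-Ph-IAA (-1.05 ± 0.09, adjusted p = 3.12e-07). It also fell in SEM WT with IAA (-0.43 ± 0.09, adjusted p = 0.00537). Smaller falls were those of RP11-61A14.3 (-0.61), XXbac-BPGBPG55C20.2 (-0.60, with 40.5% of its windows shared) and NCBP2-AS2 (-0.57), whose divergent partner NCBP2, a cap-binding subunit, rose by 0.64 (adjusted p = 2.19e-10).

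RP5-1028K7.2 (chr17:38673144-38683254, plus strand, GRCh37) had the largest rise. It was at 1.70, 2.27, 1.97 and 2.09 CPM without and 6.00, 5.30, 6.67 and 6.80 CPM with 5-Ph-IAA (log2 fold change 1.60 ± 0.13, adjusted p = 9.25e-08). Its nearest tested coding gene, CCR7, the chemokine receptor for homing to lymph nodes, lies 26.8 kb away and rose by 1.46 (adjusted p = 3.09e-07). U91328.19 (LINC02980, chr6:25992869-26002003, plus strand) was at 2.19, 2.08, 1.85 and 2.44 CPM without and 5.12, 5.91, 5.44 and 4.13 CPM with 5-Ph-IAA (1.23 ± 0.12, adjusted p = 5.2e-07), beside TRIM38, a ubiquitin ligase gene that rose by 0.50. For both genes every treated library lay above every untreated one. Their effects were larger than in SEM WT, by 1.39 ± 0.23 and 1.19 ± 0.20 on the log2 scale (adjusted p = 0.000248 and 0.000314).

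LINC00461, which holds miR-9-2, rose from 6.34, 7.21, 6.45 and 6.14 to 13.1, 12.7, 13.6 and 13 CPM (log2 fold change 0.98 ± 0.06, adjusted p = 1.01e-08), and its neighbour MEF2C, a transcription factor of lymphoid and muscle cells, rose by 0.19. RP11-290F5.2 (LINC02363), the most abundant of the 10 largest rises, went from 28.4, 29.5, 31.9 and 31.9 to 56.0, 57.0, 53.3 and 53.2 CPM (0.83 ± 0.04, adjusted p = 3.47e-10), while its nearest tested coding gene IRF2 was at 0.07 (adjusted p = 0.103). LINC00863 (0.73 ± 0.07) overlaps NUTM2D (1.18) and is uncertain. CRNDE (0.71), RP11-46D6.1 (0.70), RP11-44N11.2 (0.69), LINC00341 (0.60) and AP001258.4 (0.59) completed the list, of which RP11-46D6.1 shares 83.9% of its windows with RAB43 and AP001258.4 overlaps FAM111A.

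**Figure D2:**
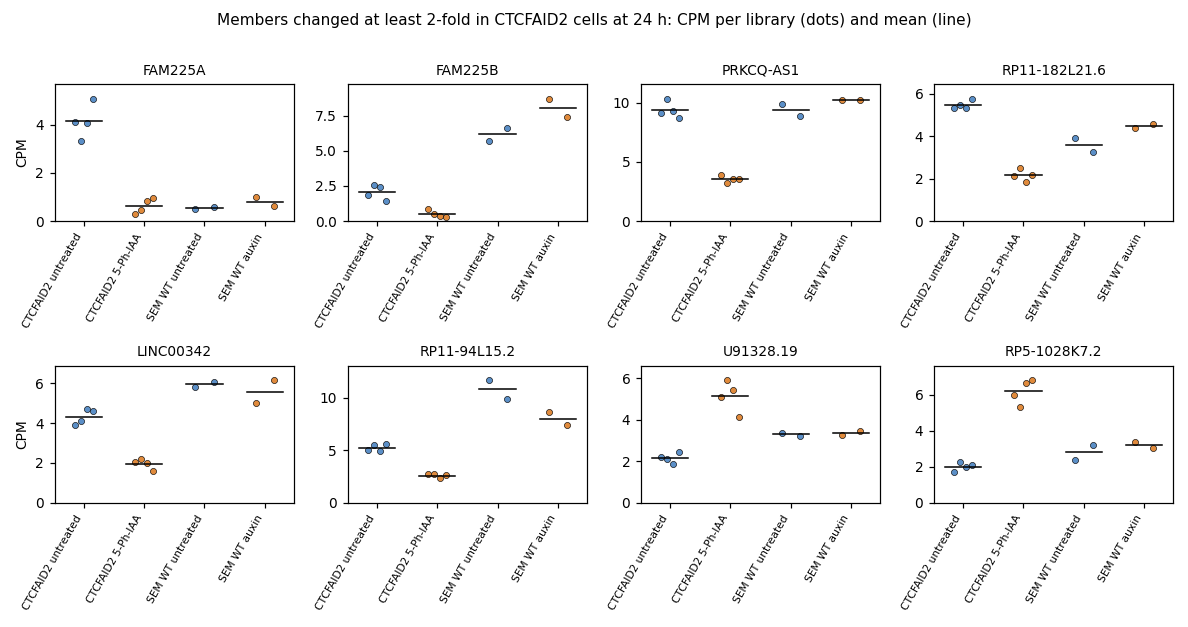
CPM (y axis, from 0) in each library of the 24 h set (dots) with the group mean (line), for the 8 members that changed at least 2-fold in CTCFAID2 cells, 6 lower and 2 higher; blue is untreated and orange is treated. Treated and untreated CTCFAID2 libraries are apart in all 8 panels, as they are for 99 of the 240 members (41.2%) and 52.1% of all genes tested, and FAM225A and FAM225B stand at different levels in SEM WT.

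Across the 184 placed members and their nearest tested coding genes, the log2 fold changes at 24 h in CTCFAID2 cells had a Pearson r of 0.25 and a Spearman rho of 0.36, given as a description because pairs share libraries and some share reads. Of 66 pairs in which both passed, 49 had the same sign. Some coding genes entered more than once, so the pairs are not independent. Among them, UQCRFS1 stood with CTC-459F4.1, CTC-459F4.3 and LINC00662, at gaps of 1220 to 1444 kb. FAM27E3 stood with RP11-262H14.1 and RP11-262H14.4, at 1316 and 1229 kb, and TPST2 with MIAT and CTA-211A9.5. The same-sign share among other gene pairs was not counted. Without members that overlap a tested gene the same values were r 0.28 and rho 0.32 over 130 pairs, and 33 of 47 pairs had the same sign. In SEM WT with IAA, which lack the degron, r was 0.26 and rho 0.26 over 184 pairs, with both genes passing in 2 pairs. At 6 h r was 0.15 and rho 0.16 over 181 pairs, and 34 of 50 pairs had the same sign.

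SEM WT cells given IAA for 24 h had 13 members higher and 5 lower, 7.50% of members against 18.9% of all genes (9.35% higher and 9.57% lower). Past 2-fold were 2 higher and 0 lower, 0.833% against 1.1% of all genes (0.479% and 0.623%). The row named MIR29B1 was at 3.54 and 3.35 CPM without and 6.96 and 7.40 CPM with IAA (log2 fold change 1.07 ± 0.14, adjusted p = 0.000165). RP11-138A9.1 was at 1.81 and 1.90 CPM without and 3.59 and 3.66 CPM with IAA (0.98 ± 0.15, adjusted p = 0.000569), and it overlaps MKLN1-AS1, so it is uncertain. SNORD3D had a log2 fold change of 1.54 ± 0.24 (adjusted p = 0.000656) and SCARNA2 of 0.61 ± 0.10 (adjusted p = 0.000581), and both groups of SEM WT libraries varied in the U3 rows, whose sum was 6145 and 12520 CPM without and 12130 and 18230 CPM with IAA. Of the 13 small RNA rows, 4 were higher in SEM WT and none lower. RP11-168O16.1 rose by 0.56, as did KIF21B, a kinesin gene that starts 0.235 kb away (0.66). Falls were those of RP1-193H18.2 (-0.69), RP11-94L15.2 (-0.43), RP11-121C2.2 (-0.40), RP11-498C9.15 (-0.36) and CCDC26 (-0.31).

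The effect differed between CTCFAID2 and SEM WT for 85 members, 32 with a higher and 53 with a lower log2 fold change in CTCFAID2 cells (35.4%, against 40.2% of all genes, 19.3% higher and 20.9% lower). Besides the genes above, RP1-193H18.2 differed by 1.00 ± 0.20 (adjusted p = 0.00112) and RP11-182L21.6 by -1.73 ± 0.15 (adjusted p = 1.04e-06). Counts that were not whole numbers made up 2.73 to 2.81% of gene rows in SEM WT and 6.33 to 7.83% in the degron lines. Reads that fit several genes may thus have been divided differently in SEM WT, which was not tested. FAM225A, FAM225B and RP11-182L21.6 share much of their sequence with other genes. In SEM WT 25 members had a mean below 2 CPM, with FAM225A below 1 CPM. Agent, dose and these features of the counts differ between the lines along with the degron, and their parts cannot be told apart.

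At 6 h, where the mean of the 4 lines was examined, more of the members that passed were lower than higher with auxin. Of 240 members 33 were higher and 90 lower, 51.2%, against 51.5% of all genes tested (13902), of which 25.1% were higher and 26.4% lower. Past 2-fold were 0 higher and 2 lower, 0.833% against 1.45% of all genes (0.683% higher and 0.77% lower). The median log2 fold change was -0.11 over the members and -0.01 over all genes. Other noncoding classes at a mean of at least 2 CPM leaned the same way, with 40 higher and 72 lower of 209 antisense genes and 13 higher and 35 lower of 104 processed transcripts, whereas of 10775 protein-coding genes 3104 were higher and 2775 lower. Of 229 tested lincRNA rows below 2 CPM 28 were higher and 64 lower. Without DeltaZ1 with auxin replicate 2 the members stood at 37 higher and 85 lower, and without the 13 small RNA rows at 33 and 86. Auxin, any doxycycline and the protein lost or added cannot be told apart within these lines.

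**Figure D3:**
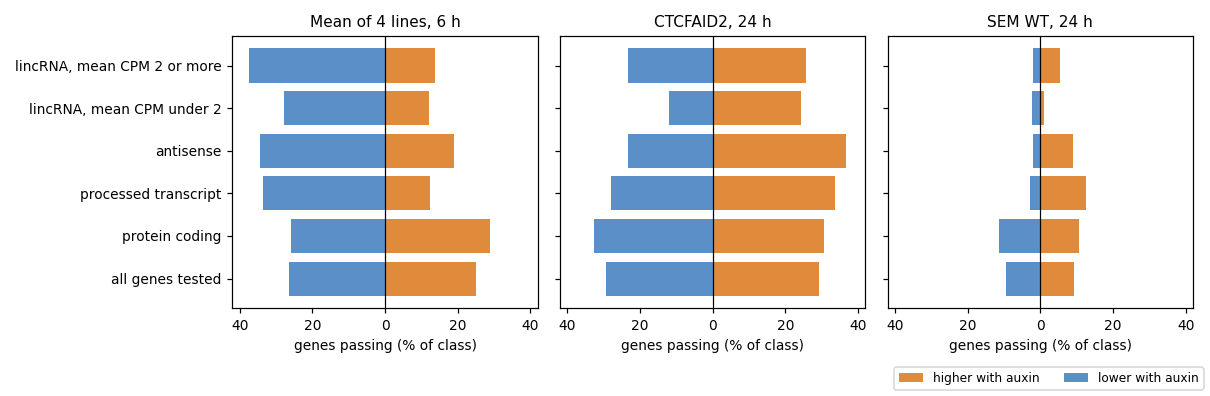
Share of each gene class that passed the test (adjusted p at most 0.05) higher (orange, to the right) or lower (blue, to the left) with auxin, in % of the class, in the mean of the 4 lines at 6 h, in CTCFAID2 cells at 24 h and in SEM WT at 24 h. At 6 h the lincRNA members are 13.8% higher and 37.5% lower, while protein-coding genes are 28.8% higher and 25.8% lower.

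In each line alone fewer members passed. The WT line had 3 higher and 32 lower (14.6% of members, against 13.7% of all genes, 6.45% higher and 7.21% lower), DeltaZ1 22 and 42 (26.7%, against 33.6%, 17.1% higher and 16.4% lower), DeltaZ10 9 and 36 (18.8%, against 18.1%, 8.89% higher and 9.24% lower) and DeltaRBR 4 and 23 (11.2%, against 10.5%, 4.8% higher and 5.68% lower). Leaving out a library of the line left 12 to 16 passing members in the WT line, 20 to 29 in DeltaZ10 and 4 to 8 in DeltaRBR, and in DeltaZ1 105 without auxin replicate 1, 40 without auxin replicate 2, and 35 and 30 without untreated replicates 1 and 2. The log2 fold change was below 0 in all 4 lines for 91 members and above 0 for 39, 37.9% and 16.2% of the members, against 29.4% and 28.5% of all genes. In the DeltaZ1 line 7 of the 13 small RNA rows were lower, and its 2 steepest falls were those of SNORD3C (-2.41 ± 0.84) and SNORD3B-2 (-2.14 ± 0.66), and edgeR and DESeq2 passed neither. SNORD3C was at 3.6 and 3.14 CPM without auxin and at 3.46 and 0.137 CPM with it, so the fall rests on DeltaZ1 with auxin replicate 2, and without that library its log2 fold change was 0.00, and that of SNORD3B-2 was -0.84 (adjusted p = 0.262).

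Passing in all 4 lines were 7 members, 6 lower and 1 higher, 2.92% against 5.55% of all genes. RP11-439L8.4 fell the most, from 4.96 and 5.66 to 2.22 and 1.88 CPM in the WT line, from 4.61 and 3.98 to 1.99 and 1.37 in DeltaZ1, from 4.06 and 4.30 to 1.73 and 2.04 in DeltaZ10, and from 4.72 and 4.78 to 2.26 and 1.43 CPM in DeltaRBR (mean log2 fold change -1.33 ± 0.10, adjusted p = 1.37e-06). RP5-1057J7.6 (LINC01355, chr1:23607800-23613981, minus strand, GRCh37) was at 17.5 to 20.6 CPM in the 8 untreated and 6.94 to 11.5 CPM in the 8 treated libraries (-1.12 ± 0.09, adjusted p = 1.76e-06), with HNRNPR, its nearest tested coding gene, at 0.12 (adjusted p = 0.132). Untreated and treated libraries did not overlap in any line for either gene. That is likely for genes picked because they passed in all 4 lines, and its share over all genes was not counted. At 24 h in CTCFAID2 cells RP11-439L8.4 was at 0.16 (adjusted p = 0.146) and RP5-1057J7.6 at 0.09 (adjusted p = 0.349).

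The other members lower in all 4 lines, named after their values were seen, were LINC00426 (-0.80), LINC00969 (-0.77), C11orf95 (-0.42) and RP11-706O15.3 (-0.32). LINC00969, which holds miR-570, was at 44.3 to 51.0 CPM in the untreated and 23 to 30.6 CPM in the treated libraries, and it shares 24.1% of its windows with other genes. RP5-1086K13.1 (-0.97 ± 0.11), RP11-661A12.14 (-0.92 ± 0.14) and RP11-94L15.2 (-0.83 ± 0.11) passed in 3 lines each.

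MIR155HG, the precursor gene of miR-155, an inflammation-linked microRNA of lymphocytes, was the member higher in all 4 lines. It went from 5.81 and 7.37 to 12.4 and 12.8 CPM in the WT line, from 6.12 and 6.01 to 11 and 15.6 in DeltaZ1, from 5.37 and 5.85 to 14.0 and 10.6 in DeltaZ10 and from 7.2 and 6.21 to 11.6 and 11.7 CPM in DeltaRBR (mean log2 fold change 0.99 ± 0.10, adjusted p = 7.9e-06). Every treated library lay above every untreated library, for a gene picked because it passed in all 4 lines. Its test within DeltaRBR was not passed when any of the 4 DeltaRBR libraries was left out, nor that within the WT line without untreated replicate 1 or auxin replicate 2. At 24 h it was higher in CTCFAID2 cells (0.54 ± 0.13, adjusted p = 0.00194), and in SEM WT it was at -0.13 (adjusted p = 0.642). RP11-2B6.2, the let-7 host shown above, rose by 0.52 ± 0.05 (adjusted p = 1.1e-05), from 9.63 to 11.8 CPM in the untreated to 14.0 to 19.2 CPM in the treated libraries, and MIR4458HG, with the same seed, was at 0.12 (adjusted p = 0.147) at 6 h and fell by 0.54 at 24 h. LINC00863 (0.54), RP11-452F19.3 (0.47) and U91328.19 (0.44) were the next rises.

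**Figure D4:**
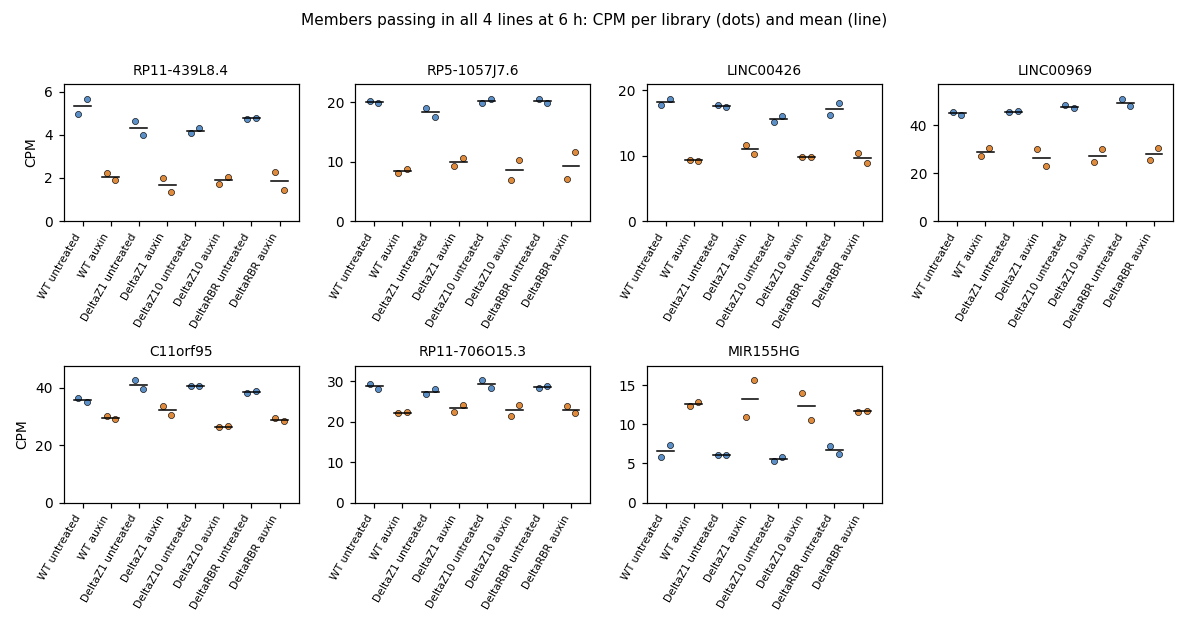
CPM (y axis, from 0) in each library of the 6 h set (dots) with the group mean (line) for the 7 members that passed in all 4 lines; blue is untreated and orange is treated, by line along the x axis. Treated and untreated libraries are apart in every line in each panel, with 6 members lower and MIR155HG higher. The members were picked because they passed in all 4 lines, which makes such separation likely. Its share over all genes at 6 h was not counted.

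To compare the added CTCF forms, the log2 fold change of the WT line was subtracted from that of DeltaZ1, DeltaZ10 and DeltaRBR in turn. For DeltaZ1, 1 member passed, 0.417% against 0.331% of all genes: CCDC26, a lncRNA gene known from myeloid leukemia, was at 14.0 and 13.9 CPM without and 8.78 and 7.23 CPM with auxin in the WT line but at 12.3 and 12.6 CPM without and 11.8 and 13.8 CPM with auxin in DeltaZ1 (difference 0.86 ± 0.16, adjusted p = 0.0494). That call was lost with the edgeR quasi-likelihood test, with no filter, with the replicate number as a block, with only the groups compared, and without any 1 of the WT line or untreated DeltaZ1 libraries, while DESeq2 passed 3 members. Without DeltaZ1 with auxin replicate 1 48 members passed and without replicate 2 5. For DeltaZ10 and DeltaRBR 0 members passed (limma-voom, against 0.0432% and 0.0% of all genes), with 15 and 17 at an unadjusted p under 0.05, and edgeR and DESeq2 gave 0 for both as well. AC138035.2 (-1.27 ± 0.23) and FAM225A (-1.23 ± 0.29) were the steepest falls of the DeltaZ10 line, AC138035.2 sharing 88.1% of its windows with other genes, and neither difference from the WT line passed.

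Both times could be set side by side, since the 6 h and 24 h sets share no library. Of 62 members that passed in the mean at 6 h and in CTCFAID2 cells at 24 h, 25 were lower in both and 14 higher in both, 16.2% of members against 22.7% of all genes, 19 were lower at 6 h and higher at 24 h, and 4 the reverse. Of 13615 genes tested at both times 4484 passed at both, 1599 higher in both, 1498 lower in both and the rest in opposite directions. Such reversals are thus not particular to the members. Among the 14 were MIR155HG, LINC00863, LINC00461, U91328.19 and CRNDE, and among the 25 LINC00342, RP11-94L15.2, AC159540.1 and NCBP2-AS2. Members that went from lower to higher included RP11-290F5.2 (-0.13, then 0.83), LINC00341 (-0.41, then 0.60), NEAT1 (-0.39, then 0.40), CCDC26 (-0.41, then 0.40) and FTX (-0.52, then 0.23). The 4 steepest falls at 24 h did not pass in the mean at 6 h: FAM225B was at 0.20 (adjusted p = 0.442), FAM225A at -0.12 (adjusted p = 0.494), PRKCQ-AS1 at 0.10 (adjusted p = 0.158) and RP11-182L21.6 at -0.15 (adjusted p = 0.169). Within single lines the values varied, and no difference from the WT line passed for any of these 4. FAM225A fell in DeltaZ10 (-1.23) and was at 0.49 in DeltaRBR (adjusted p = 0.287), RP11-182L21.6 fell in DeltaZ1 (-0.62, adjusted p = 0.0181), and PRKCQ-AS1 rose there (0.30, adjusted p = 0.0464). Time, line and treatment differ together between the sets.

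**Figure D5:**
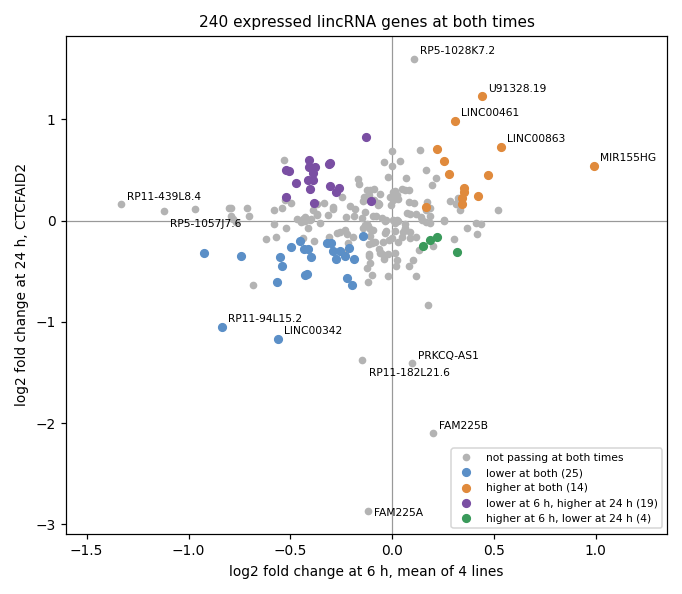
Log2 fold change with auxin of each of the 240 members at 6 h (x axis, mean of 4 lines) and at 24 h (y axis, CTCFAID2 cells); colours mark the members that passed at both times by direction, grey those that did not. RP11-439L8.4 and RP5-1057J7.6 lie on the left near 0 on the 24 h axis, and FAM225A, FAM225B, PRKCQ-AS1 and RP11-182L21.6 lie far down near 0 on the 6 h axis.

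Known RNAs were examined by role, from lists chosen with results of these data known. Their counts stand against 29.2% higher and 29.5% lower of all genes in CTCFAID2 cells at 24 h, 25.1% and 26.4% in the mean at 6 h, and 9.35% and 9.57% in SEM WT, and with 4 to 7 members a list a share is coarse. Among host genes of small RNAs, 7 of the 32 listed were members, of which 1 was higher and 4 lower in CTCFAID2 cells at 24 h (median log2 fold change -0.21, all genes 0.00), and 2 higher and 0 lower at 6 h. The list left out other host genes among the members, added here after their values were seen. At 24 h LINC00461 (0.98) and FTX (0.23) passed higher. LINC00152 (-0.16), RP11-304L19.5 (SNHG19, -0.28), RP11-1094M14.11 (SNHG30, -0.31), SNORA76 (-0.45) and MIR4458HG (-0.54) passed lower. In the mean at 6 h LINC00152 (0.22), LINC00461 (0.31), MIR24-2 (0.31), RP11-1094M14.11 (0.32) and RP11-2B6.2 (0.52) were higher, and FTX (-0.52), SNORA76 (-0.54) and LINC00969 (-0.77) lower. EPB41L4A-AS1 fell by 0.45 ± 0.04 (adjusted p = 1.1e-07), and SNHG15 fell by 0.39 ± 0.04. SNHG8, which overlaps PRSS12, fell by 0.21 ± 0.03. Of all 27 tested genes on that list, whatever their biotype, 4 were higher and 16 lower at 24 h, 6 and 6 at 6 h, and 5 and 0 in SEM WT with IAA.

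Of nuclear body, chromatin and X-linked RNAs, 6 of 18 listed were members, with 4 higher and 0 lower at 24 h (median 0.26) and 0 higher and 2 lower at 6 h (median -0.11). Of all 9 tested genes on the list 5 were higher and 0 lower at 24 h, 0 and 4 at 6 h, and 1 and 0 in SEM WT. The list left out the members XIST and FIRRE (RP11-453F18__B.1), added here after their values were seen. At 24 h XIST was at -0.03 (limma-voom adjusted p = 0.793) and FIRRE at 0.09 (adjusted p = 0.101). In the mean at 6 h XIST was lower (-0.58, adjusted p = 2.88e-06) and FIRRE was at -0.14 (adjusted p = 0.0914). NEAT1, the scaffold of paraspeckles, was at 131, 139, 135 and 160 CPM without and 177, 196, 227 and 163 CPM with 5-Ph-IAA (log2 fold change 0.40 ± 0.08, adjusted p = 0.000433). At 6 h NEAT1 was lower in the mean (-0.39 ± 0.14, adjusted p = 0.0389), but DeltaZ1 went from 211 and 205 to 252 and 107 CPM. MALAT1 (0.30 ± 0.06), MIAT (0.50 ± 0.11), a nuclear RNA, and FTX (0.23 ± 0.09), from the X inactivation centre, were higher at 24 h, and MIAT and FTX overlap other tested genes.

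Of growth and p53-linked RNAs, 4 of 20 listed were members, with 1 higher and 1 lower at 24 h (median 0.00) and 3 higher and 0 lower at 6 h. Of all 9 tested genes on the list 1 was higher and 5 lower at 24 h (median -0.14), 3 and 1 at 6 h, and 3 and 1 in SEM WT. CRNDE, an RNA raised in many tumors, was at 14.8, 17.1, 17.4 and 15.3 CPM without and 27.9, 26.9, 28.8 and 23.3 CPM with 5-Ph-IAA (log2 fold change 0.71 ± 0.06), and it also rose in SEM WT with IAA (0.40 ± 0.09, adjusted p = 0.00681). TP53TG1 rose at 6 h (0.44 ± 0.10, adjusted p = 0.00287), and TERC was at 0.03 in CTCFAID2 cells (adjusted p = 0.732). Of blood cell RNAs, 4 of 15 listed were members, with 2 higher and 1 lower at 24 h and 3 higher and 0 lower at 6 h. Of all 10 tested genes on the list at 24 h 6 were higher and 2 lower, and 1 and 0 in SEM WT, and of 9 tested at 6 h 5 were higher and 0 lower. Besides MIR155HG, MIR181A1HG (host of miR-181, a regulator of lymphocyte signaling) was at 0.32 ± 0.10 (adjusted p = 0.0207) and LINC00152 at 0.22 ± 0.06 at 6 h, and LINC00528 at 0.25 ± 0.05 at 24 h. LINC00152 shares 54.3% of its windows with other genes, chiefly MIR4435-2HG, and is uncertain.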

How the data were processed

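The starting point was the gene tables of 28 SEM RNA-seq libraries. According to the submitters' processing notes, reads were trimmed with Trim Galore 0.6.3, mapped with STAR 2.7.9a to hg19 and quantified with RSEM 1.3.1 on Gencode v19. The authors deposited RSEM expected counts, which are not normalized, and TPM. Counts were rounded to whole numbers, and TPM was used to compare levels between genes. The labels name a 3′ kit and the methods a total RNA kit with depletion of ribosomal RNA, and whether counting used strand is not stated. The 92 spike-in rows held 0 counts and were left out.

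Members were the lincRNA rows with a mean CPM of at least 2. Members, lists and comparisons were chosen with earlier results of these data known. Each set was fitted once over all genes with limma 3.58.1 (voom, TMM factors from edgeR 4.0.16, R 4.3.3), keeping genes that exceeded 1 CPM in some library of that set, with a mean per group. A gene passed at a Benjamini-Hochberg adjusted p of at most 0.05, and was 2-fold at a log2 fold change of 1 in size. Values are mean ± SD for CPM and TPM and estimate ± SE for fold changes. Each library held at least 25.8 M counts.

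The genes named were the 10 largest rises and falls among passing members at 24 h in CTCFAID2 cells, the top 5 each for SEM WT and the mean at 6 h, the top 2 for each line and the top 3 for each difference, the 10 highest by TPM, up to 4 by adjusted p of each role list, the edges of the rule, and nearest tested coding genes. Positions came from Gencode v44 on GRCh37, and promoters and microRNAs from RefSeq. Shared sequence is the share of a gene's 50-base windows that another gene's v44 transcripts hold on the same strand, unless the opposite strand is named. The alternatives were edgeR, DESeq2 1.42.0, RLE factors, library totals alone, no filter, a filter in 2 libraries, only the groups compared, a replicate block, leaving out each library, and membership at a mean of 1, of 5 or over untreated libraries. The fit was tested on simulated data. Exact permutation tests used scipy 1.17.1.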

Additional observations from a re-analysis of the deposited data

Results flagged for a closer look

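Of 114 groups of 4 libraries examined (the CTCFAID2 groups of the 57 named members), 9 held a library far from the other 3, and chance sets apart about 1 group in 20. With 5-Ph-IAA the libraries set apart were at 7.61 CPM for AP001258.4 (nearest other 6.61), 2.34 CPM for RP11-94L15.2 (nearest 2.63), 4.33 CPM for RP11-121C2.2 (nearest 3.55), 102 CPM for SNORD3B-1 (nearest 17.2) and 8.70 CPM for LINC00152 (nearest 7.66). Without auxin they were at 8.08 CPM for MIR155HG (nearest 10.9), 19690 CPM for SNORD3A (nearest 15850), 13.9 CPM for FTX (nearest 11.4) and 7.81 CPM for LINC00152 (nearest 8.82).

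A log2 fold change that differed between CTCFAID2 and SEM WT cells at 24 h, by the limma-voom test of the difference, marked 6 named members. The differences were 1.39 for RP5-1028K7.2, 1.19 for U91328.19, 1.00 for RP1-193H18.2, -3.37 for FAM225A, -2.50 for FAM225B and -1.73 for RP11-182L21.6, with adjusted p from 1.04e-06 to 0.00112. At 6 h the effect on CCDC26 differed between DeltaZ1 and the WT line by 0.86 (adjusted p = 0.0494).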

How the results depend on the processing

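Of 992 reruns of 63 named values, 930 kept direction and side of the threshold, 61 lost the call and 1 turned: SNORD3C in DeltaZ1 was at 0.00188 without auxin replicate 2 and between -4.54 and 0.00188 over the libraries left out. Of the 63 values 18 lost the call at least once. Only 488 of the reruns did something other than leave out 1 library, and all reuse the data from which the values were picked. The share of lower among passing members at 6 h was 73.2%, and 69.0 to 74.4% over the alternatives. Counting members at a mean of at least 5 CPM gave 72 passing in CTCFAID2 cells at 24 h, 71 in the mean at 6 h, 39 in DeltaZ1, 27 in DeltaZ10 and 14 in DeltaRBR, and 1 past 2-fold at each time, while a mean of at least 1 gave 15 and 7 past 2-fold, as fewer or more genes are counted. With no filter 20 passed in the WT line, 29 in DeltaZ10, 12 in DeltaRBR and 0 in the DeltaZ1 difference. With only the groups compared 62 passed in the WT line, 0 in DeltaZ1 (53 at an unadjusted p under 0.05), 41 in DeltaRBR and 0 in the DeltaZ1 difference. For that difference edgeR gave 0 and DESeq2 3. Leaving out 1 library gave 9 to 18 in SEM WT (9 without IAA replicate 2), 12 to 16 in the WT line, 30 to 105 in DeltaZ1, 20 to 29 in DeltaZ10, 4 to 8 in DeltaRBR, and 0 to 48 in the DeltaZ1 difference, with 2 to 4 past 2-fold in SEM WT and 2 to 7 in the mean at 6 h (7 without DeltaZ1 auxin replicate 1). The cause was not tested, apart from fewer libraries. Leaving out the 13 small RNA rows, an alternative chosen after seeing the data, left 115 in CTCFAID2 cells and 119 in the mean at 6 h. A fit of each line's own libraries gives no value for the mean of 4 lines.

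Whether replicate numbers pair the libraries was not settled. The deviations of same-numbered libraries correlated at -0.22, 0.06, 0.06 and -0.19 in CTCFAID2 cells and between -0.087 and 0.16 elsewhere. Where groups held 2 libraries, both replicate numbers give the same value by construction, so the check is weak there. With the replicate number as a block 113 members passed in CTCFAID2 cells, 16 in SEM WT, 120 in the mean at 6 h, 34 in the WT line, 57 in DeltaZ1, 43 in DeltaZ10, 20 in DeltaRBR and 0 in the DeltaZ1 difference.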
